A study of Mus musculus with 4 samples.

Results

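Alveolar type 1 cells are the thin, flat epithelial cells that cover most of the alveolar surface and share a basement membrane with the capillaries, across which gas is exchanged. They can arise from alveolar type 2 cells, the surfactant-secreting cells that also act as progenitors. In emphysema alveolar walls are lost, and elastase given into the airways of mice is a common way to model it. The 10 genes followed here are those commonly used to mark alveolar type 1 cells in mouse lung: Ager, Hopx, Aqp5, Pdpn, Rtkn2, Akap5, Clic5, Emp2, Cldn18 and Igfbp2. Every non-control probe whose gene name in the array files was one of these was taken, which gave 22 of 56605 probes and 10 of 27195 named genes. The question asked of them was whether loss of alveolar wall could be seen in their RNA levels at 3 weeks.

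RNA of whole lung from C57BL/6J mice was hybridised to 4 Agilent 1-colour arrays, 1 for each of the groups ORX/PPE, ORX/PBS, sham/PPE and sham/PBS. ORX/PPE mice were ORX-operated and inhaled PPE, ORX/PBS mice were ORX-operated and inhaled PBS, sham/PPE mice were sham-operated and inhaled PPE, and sham/PBS mice were sham-operated and inhaled PBS. ORX was read as orchiectomy and PPE as porcine pancreatic elastase, since a lack of testosterone and emphysema brought on by elastase are in the title of the series. All groups were sampled at 3 weeks per the labels, and each array took RNA pooled from 5 mice, so there were no replicates and no spread between mice could be measured.

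Levels below are log2 of the processed spot signal minus that of the array's 75th percentile, so a level of 0 is a signal equal to that percentile. Each gene is given by its brightest probe unless another is named, and levels of different probes are not set against each other. A difference is the level on one array minus that on another. Probes printed at 10 spots had a median SD between spots of at most 0.0362 on an array, which gives 0.0512 for a difference between 2 arrays and covers spots, not mice. In whole-lung RNA, fewer cells of a type and less RNA per cell cannot be told apart. All 22 probes of the 10 genes were well above background on all 4 arrays, as were 19320 of 27195 named genes by their brightest probe. The markers were thus detected in every pool, which by itself does not single out the cell type named by the label. Outside these genes both PPE arrays stood apart in cardiac muscle genes. The summed signal of 16 such genes was 168.4 times the 75th percentile on sham/PPE, against 81.0 on sham/PBS, 32.6 on ORX/PPE and 65.8 on ORX/PBS. With PPE 13 of the 16 were above 0 in sham mice and 0 in ORX mice, where 52.9% and 50.2% of all genes were. Their medians were 0.70 and -0.96.

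The alveolar type 1 genes lay close to one level on all 4 arrays, and none was as much as 1.5-fold higher or lower with PPE in either surgery by any of its probes. With PPE in sham mice 9 of the 10 genes were higher and 1 lower, where 52.9% of all measured genes were above 0 and 47.1% below, and their median difference was 0.11 against 0.02 for all genes. With PPE in ORX mice 2 were higher and 8 lower, where 50.2% of all genes were above 0 and 49.8% below, and the median was -0.16 against 0.00 for all genes. Past 1.5-fold, 0 of the 10 genes were lower with PPE in sham mice and 0 in ORX mice, where 4.1% and 2.44% of all genes were. The shares of all genes at least 1.5-fold higher were 5.05% in sham and 3.39% in ORX mice, and again 0 of the 10 were among them. At the 2-fold threshold the shares of all genes were 1.26% higher and 0.451% lower in sham mice, and 0.695% higher and 0.369% lower in ORX mice. An additive limma fit of surgery and agent, which has 1 residual degree of freedom and assumes no interaction, called 0 of the 10 genes for PPE after Benjamini-Hochberg adjustment over 20656 genes. It called 0% of all genes at that threshold, and 5.62% of all genes but 0 of the 10 had an unadjusted p below 0.05. ORX/PPE was the lowest array for 6 of the 10 genes, where it was for 26.8% of all genes, and sham/PPE the highest for 5 of the 10, where it was for 25.4%. A miss of the limma threshold in a fit of 4 arrays does not show that the levels were equal.

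**Figure D1:**
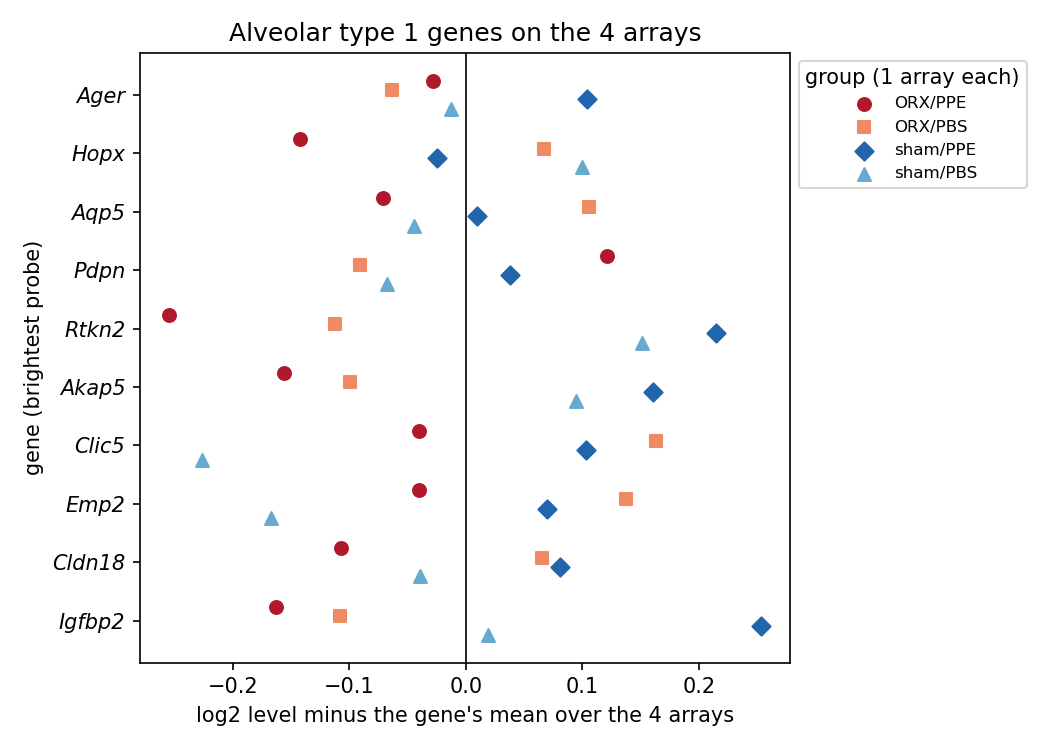
Each point is the log2 level of a gene's brightest probe on 1 array, minus that gene's mean over the 4 arrays, for the 10 alveolar type 1 genes (rows) and the groups ORX/PPE, ORX/PBS, sham/PPE and sham/PBS (1 array of 5 pooled mice each, so no error bars). For 6 of the 10 genes the lowest point is ORX/PPE, and for 5 the highest is sham/PPE.

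Ager encodes the receptor for advanced glycation end products, a pattern receptor that is unusually abundant on alveolar type 1 cells. Its level was 7.74 on ORX/PPE, 7.71 on ORX/PBS, 7.87 on sham/PPE and 7.76 on sham/PBS. The 4 Ager values lay within 0.17 of each other, with sham/PPE highest and ORX/PBS lowest. The difference with PPE was 0.12 in sham mice and 0.04 in ORX mice, the second smaller than the SD between spots. The additive limma fit gave 0.08 ± 0.13 (SE, 2 arrays with PPE and 2 with PBS) for PPE, with an adjusted p of 0.9995.

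The array carries 7 probes for Ager on mouse chromosome 17, and they target different transcript variants. The following 3 are shown because they hold the same run of bases in different transcripts, and capitals mark those 12 bases. All are written 5′ to 3′ as in the array files, with coordinates on mm9, plus strand.
A_66_P124640: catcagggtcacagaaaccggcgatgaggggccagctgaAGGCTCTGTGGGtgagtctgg
A_55_P2718122: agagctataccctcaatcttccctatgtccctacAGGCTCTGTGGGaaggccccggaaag
A_55_P2745215: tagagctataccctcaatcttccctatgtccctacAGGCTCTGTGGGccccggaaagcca
The first, at chr17:34737069-34737458, is annotated to the coding variant 1 and to a non-coding RefSeq transcript, and its 60 bases span 390 bases of genome, so they are not contiguous there. The second, at chr17:34737404-34737666, is annotated to the non-coding variant 5, and the third, at chr17:34737403-34737669, to variant 9. The last 2 share a run of 46 bases. After the capitals A_55_P2718122 has a few bases that A_55_P2745215 lacks, and then both go on alike. Some RNA of one may thus bind the other, and the 2 may not be separate measurements. A further probe, A_55_P2718127 at chr17:34736324-34736383, lies in bases shared by 4 RefSeq coding variants, and A_55_P2745210 at chr17:34735514-34737708 is annotated to variant 8.
A_55_P2718127: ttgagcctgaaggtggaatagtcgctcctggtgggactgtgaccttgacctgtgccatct
A_55_P2745210: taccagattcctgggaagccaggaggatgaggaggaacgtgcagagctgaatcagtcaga

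With PPE in sham mice 6 of the 7 Ager probes were higher and 1 lower, from -0.04 to 0.32. In ORX mice 4 were higher and 3 lower, from -0.20 to 0.07. The largest differences of both signs were on A_55_P2718127, which had 5.33 on ORX/PPE and 5.53 on ORX/PBS, and 5.51 on sham/PPE and 5.20 on sham/PBS. The lowest difference in sham mice was on the variant 9 probe, at -0.16 on ORX/PPE, -0.20 on ORX/PBS, -0.14 on sham/PPE and -0.11 on sham/PBS. That probe stayed within 0.09 over the 4 arrays. The 2 brightest probes, which share 55 bases and so are not separate measurements, both had sham/PPE highest. Ager was thus not lower with PPE in sham mice on any probe by more than the SD between spots.

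Genes whose profile over the 4 arrays was most like that of Ager, by the root mean square distance of levels centred on their mean, were Dusp10 at 0.0029, Dlst at 0.0033, Tmed3 at 0.0062, Acer3 at 0.0071 and Dhrs7b at 0.0093. Because the profile is nearly flat, 436 of 19319 genes lay within the SD between spots of it. None of the other 9 alveolar type 1 genes did. The nearest of them was Cldn18 at 0.08 and the farthest Clic5 at 0.16.

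Ager ligands were measured beside their receptor. With PPE in sham mice, 2 of 7 ligand genes were higher by 2-fold or more and 0 were lower by as much, with a median of 0.15. These were S100a8 at 2.35 and S100a9 at 1.97, the calprotectin subunits, which are neutrophil products, and the 11 neutrophil genes measured on both arrays had a median of 1.39 in the same comparison. With Ngp, which was above background on sham/PPE but not on sham/PBS, at its bound, the median of the 12 was 1.32. In ORX mice 0 of the 7 were 2-fold higher or lower, and the list ran from -0.11 for S100a6 to 0.40 for S100a9. The receptor's own difference was 0.12 in sham mice, beside these ligand values.

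Hopx encodes a small homeodomain protein that does not bind DNA and marks alveolar type 1 cells, and it is also made in heart muscle. Its level was 5.69 on ORX/PPE and 5.89 on ORX/PBS, and 5.80 on sham/PPE and 5.93 on sham/PBS. Both PPE arrays lay below both PBS arrays, by -0.21 in ORX mice and -0.12 in sham mice. By the brightest probe it was the only one of the 10 genes lower with PPE in both surgeries, where 22.3% of all genes were. Rtkn2 was too by the mean over probes, where 24.1% of all genes were. Aqp5 and Akap5 were under quantile normalization, where 23% of all genes were. The median of the 16 cardiac genes with PPE was -0.96 in ORX mice and 0.70 in sham mice, and the part of heart muscle RNA in the Hopx values was not tested. The additive limma fit gave -0.17 ± 0.13 (SE, 2 arrays with PPE and 2 with PBS), with an adjusted p of 0.9995.

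Genes of the epithelial surface and barrier were measured next. Aqp5 encodes the apical water channel of alveolar type 1 cells. Its brightest probe stood at 5.09 on ORX/PPE and 5.27 on ORX/PBS, and at 5.17 on sham/PPE and 5.12 on sham/PBS, so the 4 arrays lay within 0.18. A second probe, which reads coding sequence at chr15:99424655-99424714, had a wider spread, with 2.23 on ORX/PPE, 2.69 on ORX/PBS, 2.47 on sham/PPE and 2.29 on sham/PBS.
A_55_P2071236: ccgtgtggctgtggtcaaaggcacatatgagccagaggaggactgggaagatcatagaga
The differences with PPE were 0.05 and 0.17 by the 2 probes in sham mice and -0.18 and -0.46 in ORX mice. Both probes thus had opposite signs in the 2 surgeries, and both had ORX/PBS highest and ORX/PPE lowest. The sign of the brightest probe in sham mice turned to -0.06 under quantile normalization.

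Cldn18, the claudin that seals alveolar tight junctions, had 0.11 on ORX/PPE and 0.29 on ORX/PBS, and 0.30 on sham/PPE and 0.18 on sham/PBS. The difference with PPE was -0.17 in ORX mice and 0.12 in sham mice. Its single probe, on chromosome 9, targets a stretch annotated to all 4 RefSeq variants, so the lung and stomach forms of this gene were not separated. Emp2 encodes a 4-pass membrane protein of the Pmp22 family found on the surface of type 1 cells. It had 5.49 on ORX/PPE and 5.67 on ORX/PBS, and 5.60 on sham/PPE and 5.37 on sham/PBS. The sham/PBS array was lowest for Emp2, and the difference with PPE was 0.24 in sham mice and -0.18 in ORX mice.

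Pdpn encodes podoplanin, a mucin-like surface protein of type 1 cells, which binds the platelet receptor Clec1b and is also made by lymphatic endothelium and mesothelium. Its level was 4.81 on ORX/PPE and 4.60 on ORX/PBS, and 4.73 on sham/PPE and 4.63 on sham/PBS. With PPE it was higher by 0.21 in ORX and 0.11 in sham mice. It alone of the 10 was higher in both surgeries by more than the SD between spots, where 15.8% of all genes were. Under quantile normalization 0 of the 10 were, where 15.2% of all genes were. Lymphatic markers, 6 of 6 of them above background on every array, had a summed signal of 19.5 on ORX/PPE and 20.3 on ORX/PBS, and 20.5 on sham/PPE and 15.99 on sham/PBS. Their medians with PPE were 0.11 in ORX mice and 0.39 in sham mice. Mesothelial markers, also 6 of 6, summed to 25.9 and 25.7 on ORX/PPE and ORX/PBS, and to 31.4 and 25.3 on sham/PPE and sham/PBS. Their medians with PPE were -0.29 in ORX mice, where 4 of the 6 were below 0, and 0.00 in sham mice, where 3 were. The part of either cell type in the Pdpn values was not tested. The additive limma fit gave 0.16 ± 0.13 (SE, 2 arrays with PPE and 2 with PBS) for Pdpn, with an adjusted p of 0.9995.

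Clic5 encodes a chloride intracellular channel family protein that binds the actin cytoskeleton through ezrin-family proteins. Its brightest probe had 5.41 on ORX/PPE and 5.61 on ORX/PBS, and 5.55 on sham/PPE and 5.22 on sham/PBS. The difference with PPE, 0.33 in sham mice, was the largest among the brightest probes of the 10 genes there, and in ORX mice it was -0.20. A dimmer probe, annotated to a thymus cDNA clone, had -0.01 in sham mice and 0.11 in ORX mice, and so did not follow the first. Of the ezrin family, Ezr, Rdx and Msn lay between -0.09 and 0.17 in sham mice and between 0.01 and 0.18 in ORX mice.

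Rtkn2, a type 1 cell marker related to Rtkn, and Akap5, a scaffold that anchors protein kinase A at membranes, both had ORX/PPE lowest on every probe. Rtkn2 had 3.52 on ORX/PPE and 3.66 on ORX/PBS, and 3.98 on sham/PPE and 3.92 on sham/PBS by its brightest probe. With PPE the difference was -0.14 in ORX mice and 0.06 in sham mice, and the other 3 probes lay between -0.19 and -0.16 in sham mice. The sign in sham mice therefore depends on the probe, and the mean over the 4 probes was -0.11. Akap5 had 4.15 on ORX/PPE and 4.20 on ORX/PBS, and 4.46 on sham/PPE and 4.40 on sham/PBS. Its difference with PPE was -0.06 in ORX mice and 0.07 in sham mice.

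Igfbp2 encodes a secreted protein that binds insulin-like growth factors, and in mouse lung it marks mature type 1 cells. Its probe ends on the stop codon, at chr1:72898677-72898736, and that codon is in capitals.
A_55_P2056729: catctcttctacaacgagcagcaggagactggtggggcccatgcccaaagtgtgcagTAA
The level was 3.12 on ORX/PPE and 3.17 on ORX/PBS, and 3.53 on sham/PPE and 3.30 on sham/PBS. The sham/PPE array stood above the other 3, and the difference with PPE was 0.23 in sham mice and -0.05 in ORX mice. Among 11 other genes of the insulin-like growth factor system, 9 were measured on both arrays of each PPE comparison. Their medians were -0.08 in sham mice and -0.08 in ORX mice. Igf1, the growth factor itself, was highest at 0.60 and 0.48, and the binding protein gene Igfbp3 lowest at -0.64 and -0.46.

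**Figure D2:**
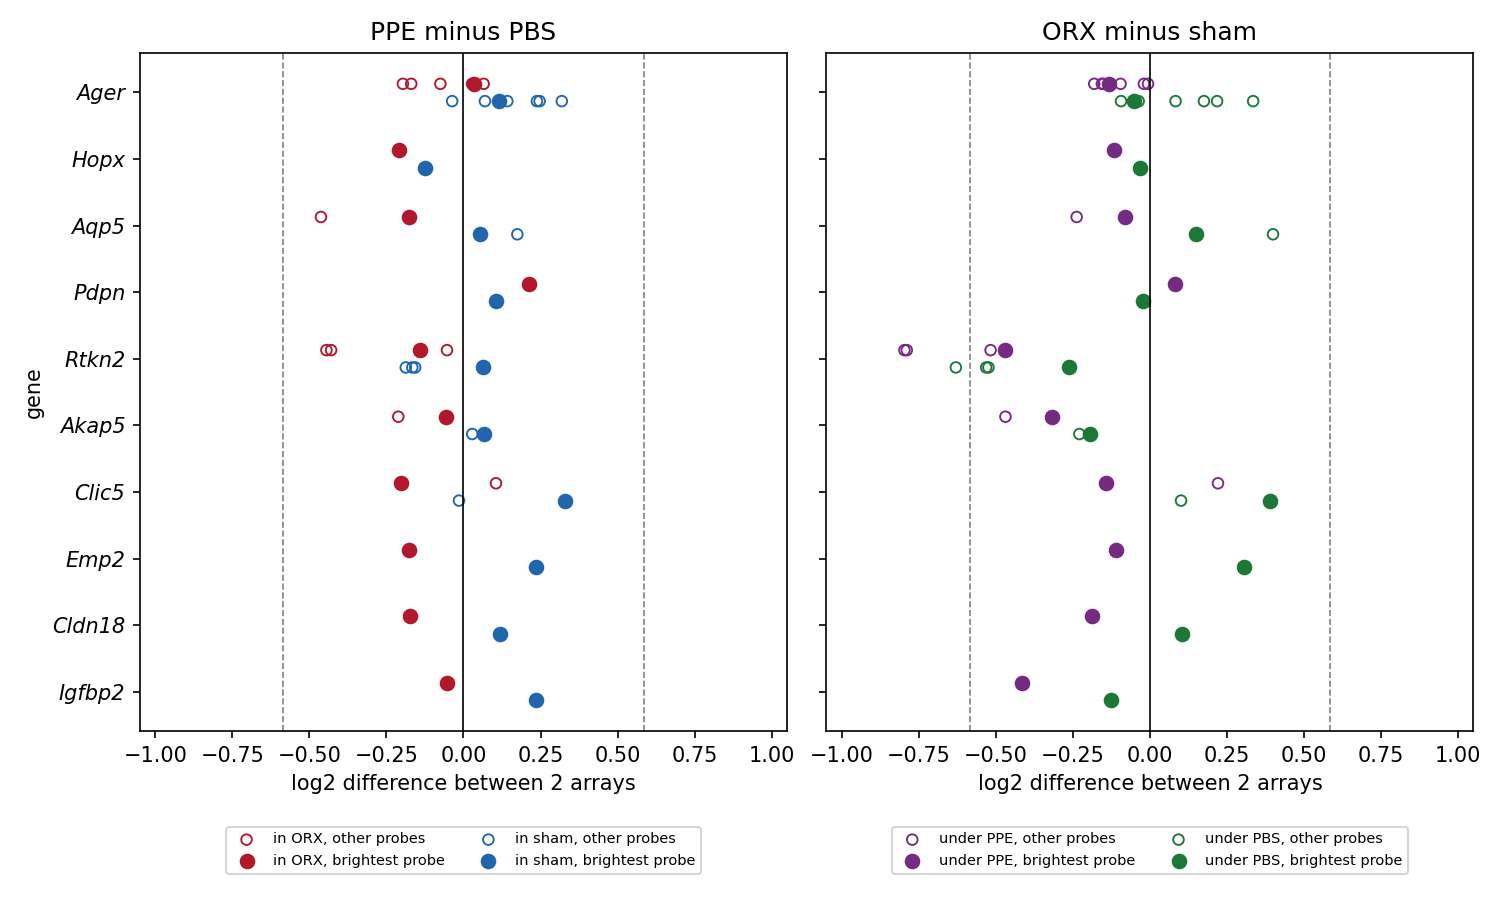
Log2 differences between 2 arrays for the 10 alveolar type 1 genes, with PPE minus PBS on the left and ORX minus sham on the right. Filled points are the brightest probe and open points the other probes, dashed lines mark 1.5-fold, and there are no error bars because each group is 1 array. All points on the left lie inside 1.5-fold, and on the right 3 open points of Rtkn2 lie outside it.

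PPE in ORX mice and PPE in sham mice were compared with each other to ask whether the type 1 genes differed in their elastase response between the surgeries. These comparisons share no array. The PPE difference in ORX minus that in sham was below 0 for 9 of the 10 genes, where 52.9% of all genes were below 0, with a median of -0.22 against -0.02 for all genes. It was -0.53 for Clic5, -0.41 for Emp2, -0.29 for Cldn18, -0.29 for Igfbp2, -0.23 for Aqp5 and -0.21 for Rtkn2. The values for Akap5, Hopx and Ager were -0.12, -0.08 and -0.08, and Pdpn alone was above 0, at 0.11. A value below 0 was not particular to type 1 genes. It was found for 16 of 16 cardiac, 10 of 11 neutrophil, 10 of 12 macrophage and 6 of 6 mesothelial genes. Type 2 and capillary genes had 8 of 12 and 9 of 13 below 0, while club cell genes had 0 of 5 and ciliated cell genes 1 of 8. For 7 of the 10 genes the difference was above 0 in sham mice and below 0 in ORX mice, both by more than the SD between spots, where 17.7% of all genes were. That count was 4 of the 10 under quantile normalization (Ager, Clic5, Emp2 and Cldn18), where it was 18.2% of all genes, and 4 by the mean over probes (Aqp5, Emp2, Cldn18 and Igfbp2), where it was 16.8%. With 4 arrays the difference of differences has no residual and no test was possible, and the additive limma fit assumes it to be 0.

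ORX and sham arrays were then compared, once with PPE and once with PBS, to read the type 1 genes against the surgery. These 2 comparisons share no array with each other, though each shares an array with each comparison of PPE. Under PPE 1 of the 10 genes was higher and 9 lower, where 47.3% of all genes were above 0 and 52.7% below, and the median was -0.14 against -0.01 for all genes. Under PBS 4 were higher and 6 lower, where 48.5% of all genes were above 0 and 51.5% below, and the median was -0.03 against -0.01. By the brightest probe 0 of the 10 were 1.5-fold higher or lower under either agent. The shares of all genes at least 1.5-fold lower were 4.63% under PPE and 5.63% under PBS, and those at least 1.5-fold higher 2.43% and 3.76%. At 2-fold, where 0 of the 10 lay too, 0.322% were higher and 1.41% lower under PPE, and 0.585% were higher and 1.26% lower under PBS.

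Ager, Rtkn2, Akap5 and Igfbp2 were lower with ORX under both agents by more than the SD between spots, so 4 of the 10 genes, where 20.9% of all genes were. For Ager the value under PBS, -0.05, only just exceeded that SD, and 4 of its 7 probes were higher there. Its sign under PBS turned to 0.02 under quantile normalization and in the deposited value table, 0.0086 with median centring and 0.09 by the mean over probes. Rtkn2, Akap5 and Igfbp2 met the rule under all 6 alternatives, though the filter on dim probes could not change their values. Rtkn2 had the largest values, at -0.47 under PPE and -0.26 under PBS by its brightest probe, and all 4 of its probes were lower under both. The ranges over its probes were -0.80 to -0.47 under PPE and -0.63 to -0.26 under PBS. The probe in coding sequence, at chr10:67504243-67504302, is shown because it had the largest value under PBS.
A_52_P27482: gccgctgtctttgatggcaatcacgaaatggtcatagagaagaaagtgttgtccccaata
It had 1.62 on ORX/PPE and 1.68 on ORX/PBS, and 2.14 on sham/PPE and 2.31 on sham/PBS. Both ORX arrays lay below both sham arrays. The probes A_55_P2725926 and A_52_P285194, which lie nearest the 3′ end, had -0.79 and -0.80 under PPE and lay past 1.5-fold there. The additive limma fit over all 4 arrays gave -0.37 ± 0.14 (SE, 2 ORX and 2 sham arrays) for Rtkn2, with an unadjusted p of 0.0588 and an adjusted p of 0.637.

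Akap5 was at -0.32 under PPE and -0.19 under PBS, and its second probe, in coding sequence at chr12:77430968-77431027, at -0.47 and -0.23.
A_66_P101963: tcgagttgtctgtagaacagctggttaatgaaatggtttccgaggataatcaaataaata
That probe had 1.83 on ORX/PPE and 2.04 on ORX/PBS, and 2.30 on sham/PPE and 2.27 on sham/PBS, again with both ORX arrays below both sham arrays. Igfbp2 was at -0.42 under PPE and -0.13 under PBS, and here too the ORX arrays were the lower pair. Clic5 and Emp2 had opposite signs under the 2 agents, at -0.14 and -0.11 under PPE and at 0.39 and 0.30 under PBS. In the additive limma fit 0 of the 10 genes passed for ORX, with adjusted p-values from 0.637 to 0.980. At an unadjusted p below 0.05 there were also 0 of the 10, where 7.93% of all genes were.

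**Figure D3:**
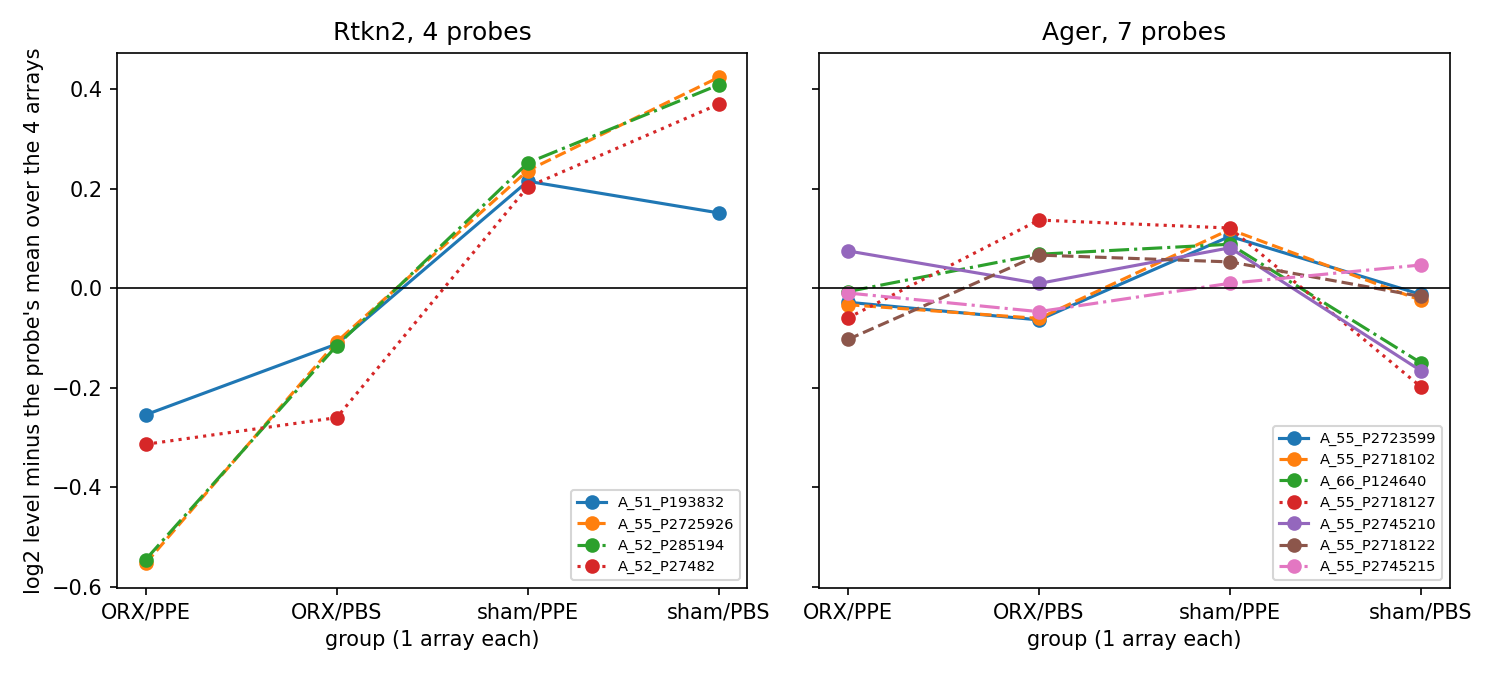
Log2 level of each probe of Rtkn2 (4 probes) and Ager (7 probes) minus that probe's mean over the 4 arrays, for the groups ORX/PPE, ORX/PBS, sham/PPE and sham/PBS (1 array each, lines only join points of a probe). All 4 Rtkn2 probes are lower on both ORX arrays than on both sham arrays, while the Ager probes differ in which array is highest.

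Other genes of alveolar type 1 cells were taken from a list that holds none of the 10. Of 16 such genes, all measured, 0 were 1.5-fold higher or lower in either PPE comparison. Their median with PPE was 0.12 in sham mice, with 14 above 0 where 52.9% of all genes were, and -0.11 in ORX mice, with 5 above 0 where 50.2% were. In sham mice they ran from -0.20 for Vegfa, the endothelial growth factor that type 1 cells secrete, to 0.52 for Lama3, a laminin chain of the basement membrane. In ORX mice they ran from -0.55 for the Wnt ligand gene Wnt7a to 0.25 for Col4a3, a collagen chain of the same membrane. The PPE difference in ORX minus that in sham was below 0 for 14 of the 16, where 52.9% of all genes were, with a median of -0.24. ORX minus sham had a median of -0.07 under PPE, with 7 of the 16 above 0, where 47.3% of all genes were. Under PBS the median was 0.19, with 13 above 0, where 48.5% of all genes were. The median of all genes was -0.01 under either agent. Under PBS most of these genes were thus higher with ORX, where 4 of the first 10 were.

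The Yap and Taz pathway, which drives type 1 identity, and alveolar transcription factors gave 12 measured genes, and 0 were 1.5-fold higher or lower with PPE in either surgery. Their medians were 0.03 in sham and -0.06 in ORX mice. Ankrd1, a Yap target that heart muscle also makes, was highest in sham mice at 0.56 and Tead4, a partner of Yap, lowest at -0.37. In ORX mice the targets Ccn2 and Ccn1 were at the ends, at 0.28 and -0.54. Nkx2-1, the lung lineage factor, was at -0.08 in sham and 0.11 in ORX mice.

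Markers of the cell types that adjoin type 1 cells were read for comparison. Alveolar type 2 genes, 12 of 12 measured, were all above 0 with PPE in sham mice, where 52.9% of all genes were. Their median was 0.22, and 2 of them were at least 1.5-fold higher, where 5.05% of all genes were. For these 2, Napsa and Slc34a2, sham/PBS was the lowest array, at 3.10 and 0.98, against 3.64 and 1.48 on ORX/PBS. The 12 differences ranged from 0.02 for the surfactant gene Sftpb to 0.60 for Napsa, a surfactant-processing protease. In ORX mice their median was 0.07, from -0.07 for Lpcat1 to 0.31 for Sftpd, and 0 passed 1.5-fold. Genes of transitional cells between type 2 and type 1 had a median of 0.08 with PPE in sham mice. In ORX mice it was 0.13, with 1 of the 12 genes past 1.5-fold, the cell cycle inhibitor gene Cdkn1a at 0.80. Of all genes 3.39% were at least 1.5-fold higher there. Cdkn1a had 1.34 on ORX/PPE and 0.54 on ORX/PBS, and 1.73 on sham/PPE and 1.97 on sham/PBS. Its difference with PPE in sham mice was -0.24. Capillary endothelial genes, from the other side of the alveolar wall, had a median of -0.09 in sham mice and of -0.13 in ORX mice over 13 genes. They ran from -0.42 for Ednrb to 0.43 for Tbx2 in sham mice and from -0.49 for Apln to 0.18 for Cdh5 in ORX mice, and 0 passed 1.5-fold.

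Relatives and partners of the 10 genes were read as well. Of 13 such genes, among them Emp1, Pmp22, Clic1, Clic4, Rtkn, Akap12 and Clec1b, 0 passed 1.5-fold with PPE. They ran from -0.40 for Clic6 to 0.42 for Rtkn in sham mice and from -0.41 for Emp3 to 0.18 for Rdx in ORX mice. Of 12 claudin and tight junction genes beside Cldn18, 2 were at least 1.5-fold lower in sham mice, Cldn10 at -0.68 and Cldn2 at -0.67. In ORX mice 0 were, where the shares of all genes were 4.1% in sham and 2.44% in ORX mice. Cldn2 was dim, at -5.88 on sham/PPE and -5.21 on sham/PBS. The lowest levels above background on those arrays were -6.26 and -6.36. Of 9 aquaporin genes beside Aqp5, Aqp9 was highest at 0.91 in sham and 0.48 in ORX mice. Aqp8, above background on only the 2 PBS arrays, was lower with PPE by bounds of -1.07 in ORX and -0.82 in sham mice. Among the cell types, the median of alveolar macrophage genes was 0.69 in sham mice and 0.11 in ORX mice, and that of ciliated cell genes -0.50 and -0.01.

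The genes of other cell types that stood past 2-fold with PPE are given for comparison. Of the alveolar macrophage list, the scavenger receptor gene Marco was at 1.80 in sham and 2.30 in ORX mice. Trem2 was at 1.47 and 1.34, and Chil3 at 1.03 and 1.03. Fabp4, of the same list, was at 1.16 in sham mice and -0.37 in ORX mice. Which cells its RNA came from was not tested. The neutrophil genes Mmp8 and Retnlg were at 2.28 and 2.18 in sham mice, and Il1r2 was at 1.66 in sham and 1.18 in ORX mice. In ORX mice Il1r2 was the only 1 of 12 neutrophil genes at least 2-fold higher, where 0.695% of all genes were. The median of the 12 there was 0.24, and 4 were below 0. Of the cardiac genes, Nppb, Nppa, Myl2 and Mybpc3 were at 4.71, 3.00, 1.57 and 1.30 in sham mice. In ORX mice Ckm, Nppa, Pln and Sln were at -1.54, -1.49, -1.36 and -1.10. None of the 10 type 1 genes was past 0.33 in size with PPE by its brightest probe.

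**Figure D4:**
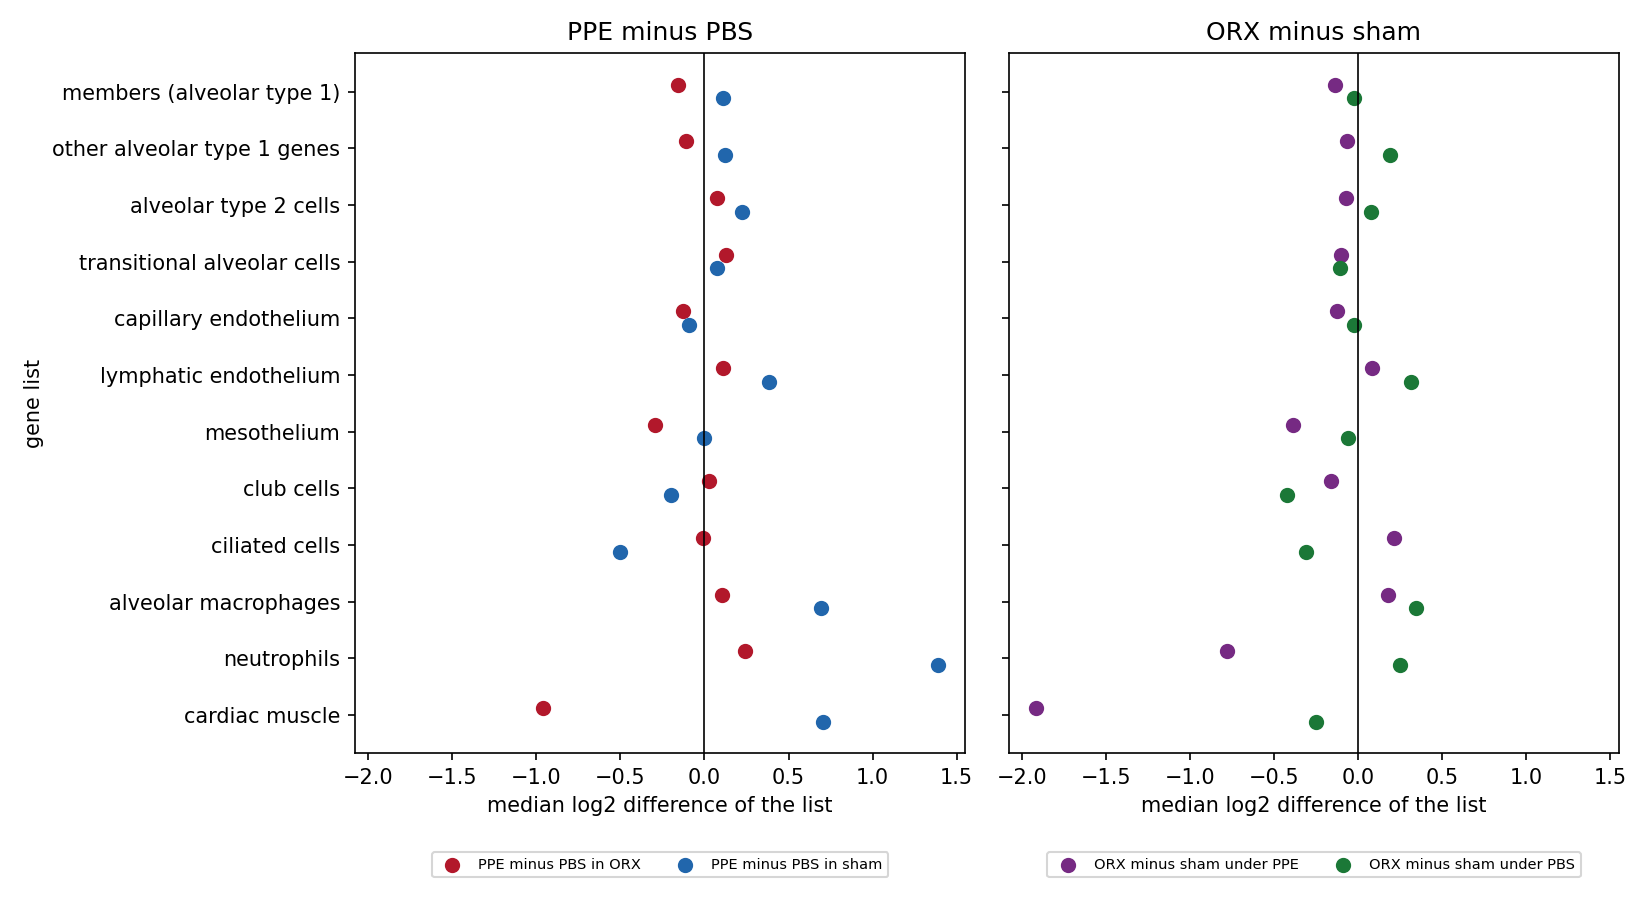
Median log2 difference of each gene list (rows) for PPE minus PBS on the left and ORX minus sham on the right, 1 array a group and so no error bars. The 2 alveolar type 1 lists lie within 0.20 of 0 in all 4 comparisons, while neutrophil genes reach 1.39 with PPE in sham mice and cardiac genes -1.92 with ORX under PPE.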

How the data were processed

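RNA was extracted with TRIzol and purified on a kit, then labelled by the low-input Agilent protocol, per the labels' protocols. Per the file headers the scans were read by Feature Extraction, release 10.7.1.1, whereas the submitters' processing notes name 9.5.1.1. The deposited processed signal is a linear intensity per spot, as the scanner software gave it, per the file headers. The other columns used are marks of 0 or 1 per spot, also per the file headers. A second deposited table gives a linear intensity per probe. Its median is 71.5 on all arrays, and it lay at a median distance of 0.00364 (log2) from a quantile normalization of the scanner values, whose direction it follows. The steps that made it are not given in the sources used here.

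Control spots and outlier spots (31 to 54 of 59305 an array) were left out and spots of one probe averaged. Signals were divided by the array's 75th percentile (829.8 to 999.2) before log2. Of 27195 genes, 20132 to 20912 were detected on an array. A gene dim on 1 array got a bound against the lowest signal above background. Precision is limited by the number of arrays. The additive fit (limma 3.58.1, R 4.3.3, lmFit and eBayes) took genes above background on at least 2 arrays and was tested on simulated data. Other steps ran in Python 3.11.15. Coordinates are the files' own, on mm9.

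The 10 genes, the lists and the tests were chosen with earlier results of these data known. Genes named are the 10, list members past 2-fold with PPE (up to 4 a direction) or else the highest and lowest, and the 5 nearest to Ager. The highest and lowest of lists given by their median alone are not named. Cldn2, Nkx2-1, the ezrin family and the names among relatives were added after their values were seen. Alternatives were normexp (offset 50), quantile normalization, centring on the median, averaging a gene's probes, other filters on dim probes, and the second table.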

Additional observations from a re-analysis of the deposited data

Results flagged for a closer look

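For 7 of the 10 genes the difference with PPE was below 0 in ORX mice and above 0 in sham mice. The difference between the surgeries was not tested, since each group is 1 array, and 17.7% of all genes showed the same pair of signs, both past the SD between spots. The sign in sham mice turned for Aqp5 (-0.06) and Akap5 (-0.02) under quantile normalization and for Rtkn2 (-0.11) by the mean over probes. The PPE difference in ORX minus that in sham was -0.53 for Clic5, from -0.20 in ORX and 0.33 in sham mice, and -0.41 for Emp2, from -0.18 and 0.24. It was -0.29 for Cldn18, -0.29 for Igfbp2, -0.23 for Aqp5, -0.21 for Rtkn2 and -0.12 for Akap5. The dim second probe of Clic5 gave 0.12, and 1 of the 4 Rtkn2 probes gave 0.11.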

How the results depend on the processing

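Of 24 recomputed medians of the 10 genes, 19 moved by less than the SD between spots. The filter for probes above background on all 4 arrays could not move a median, since all 22 probes pass it. The value table nearly repeats quantile normalization, so the 6 alternatives are not 6 separate checks. The median with PPE in sham mice, 0.11, was 0.055 under quantile normalization, 0.055 in the value table and 0.17 with median centring. The median for ORX under PBS, -0.028, was 0.032 with median centring and 0.033 with the mean over probes. Median centring also moved the median of all genes with PPE in sham mice, from 0.018 to 0.079. For ORX under PBS it moved the median of all genes from -0.0093 to 0.051. With the mean over probes the median of all genes for ORX under PBS was -0.028. Of 40 differences of single genes, 32 kept their sign under all 6 alternatives, and the other 8 were at most 0.14 in size. They include Rtkn2 with PPE in sham mice, at -0.11 by the mean over probes, and Ager with PPE in ORX mice, at -0.05 under quantile normalization. Counts of sign pairs were recomputed under the same alternatives, a step chosen after seeing the data. The 7 genes higher with PPE in sham and lower in ORX mice were 4 under quantile normalization, in the value table and by the mean over probes, and 5 under normexp. The 4 genes lower with ORX under both agents were 3 or 4 in every setting, and the 9 genes with a PPE difference lower in ORX than in sham mice remained 9, and the same 9, in every setting. Under the additive limma fit 0 of the 10 genes passed for PPE or ORX in any setting, with the lowest adjusted p from 0.696 to 0.9998 for PPE and from 0.314 to 0.813 for ORX. At an unadjusted p below 0.05, 1 gene passed for ORX under normexp, under the mean over probes and under the strict filter. The fit without the sham/PPE array, or any other, has no residual degree of freedom. No paired analysis was possible because each group is 1 array.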
